A study of Drosophila melanogaster with 30 samples.

Results

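RNA of the central nervous system was compared at the onset of metamorphosis between males in which EcR-A, an isoform of the ecdysone receptor EcR, was targeted by RNA interference (RNAi) and males carrying only the driver. The RNAi males had the genotype fru P1-GAL4; uas-EcRA RNAi and the control males fru P1-GAL4; +, so the GAL4 driver was carried by all of them and the RNAi construct by the RNAi males only. Animals were taken as white prepupae, 0 h after puparium formation, and RNA came from about 20 pooled brains and ventral nerve cords. It was amplified, labelled as cRNA and hybridised on 4 spotted arrays with 2 channels each. RNAi RNA carried Cy5 on replicates 1 and 2, and driver-only RNA carried Cy5 on replicates 3 and 4. The series holds 30 such arrays in 6 experiments, and its design text calls the samples biologically independent. Also used here were RNAi and driver-only males of the same genotypes as adults, collected within 24 h of eclosion (4 arrays). CNS at 48 h after puparium formation came from Canton S females and males (4 arrays) and from fru P1 mutant and wild-type males (6 arrays). In the mutant CNS, w; fru-w12/fru-ChaM5 males carried Cy5 against w; Berlin males on 3 arrays, and Canton S males carried Cy5 against fru-440/fru-P14 males on the other 3, so that dye and strain pair cannot be told apart there. Outside the fits, values are given for 1 probe from whole pupae of these mutant and wild-type strains at 48 h (8 arrays). Values of called probes are also given from 1 array of the RNAi comparison at 48 h.

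Of the 15744 probes of the array, 5934 (37.7%) were included, namely those with a value on at least 3 of the 4 arrays and at least 1 in each dye orientation. Of these, 4824 had a value on all 4 arrays and 1110 on 3. Just outside the rule lay 726 probes with 2 values and 719 with 1, and 8365 had none at this stage. Probes carry plate positions as IDs (plate, row, column), which the sources used here do not pair with gene names. No probe could therefore be assigned to EcR, to fru or to any marker of a cell type, and neither the knockdown nor the labelled tissue was checked against a gene.

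Ecdysone is the steroid hormone of insect moulting and metamorphosis. It binds EcR, a nuclear receptor that works as a dimer with Ultraspiracle and switches on cascades of transcription factors, and a pulse of it sets off pupariation. The EcR isoforms share their DNA-binding and ligand-binding domains and differ in their amino-terminal part; in the nervous system they are known for roles in the remodelling and death of neurons. Transcripts from the P1 promoter of fru encode the male-specific transcription factors FRUM, which are required for male courtship behaviour and are made in a minority of neurons. fru P1-GAL4 drives the RNAi construct in these cells, whereas the RNA measured came from the whole tissue, in which fewer cells of a type and less RNA per cell cannot be told apart.

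Values are deposited log2 ratios, centred near 0, with array medians of 0.00993, 0.0301, -0.0242 and -0.0326 on replicates 1 to 4. The labels do not state which sample a positive ratio favours. Signs are given as deposited, read as turned to 1 direction on all 4 arrays, and the reading of all ratios as Cy5 over Cy3 is given further on. The arrays gave a value for 5652, 6353, 6455 and 6337 probes, and the standard deviation (SD) over probes was 0.493, 0.352, 0.390 and 0.541. Signal over background is unknown, and the precision is limited by having 4 arrays.

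The 4 arrays separated by dye orientation. Across the 4824 probes with 4 values, replicates 1 and 2 correlated with Pearson's r = 0.626 and replicates 3 and 4 with r = 0.285, whereas the 4 pairs of arrays of opposite dye orientation had r between -0.419 and -0.277. Each r is taken across probes of 1 pair of arrays, and probes are no replicates of a condition. On all 4 arrays, 1972 probes (40.9%) had a sign that followed the dye orientation, 1038 of them (21.5%) higher and 934 (19.4%) lower where RNAi RNA carried Cy5. By contrast, 420 probes (8.71%) kept 1 sign on all 4 arrays, 185 positive (3.83%) and 235 negative (4.87%). An effect, the mean of both dye orientations, and a dye component, their difference divided by 2, were therefore estimated separately for each probe. The effect exceeded the dye component in size for 1896 of the 5934 probes, with an SD over probes of 0.221 for the effect and 0.313 for the dye component.

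With signs read as deposited, few probes differed detectably between RNAi and driver-only males in the RNA of the whole nervous system, and all that passed the test had a positive ratio. The effect passed for 22 of 5934 probes (0.371%; limma adjusted p under 0.05), with a median of 1.29 and a range of 0.506 to 2.65 log2 units. Fold sizes above 2 were reached by 16 of them. No probe passed with a negative ratio (0 by limma, adjusted). At an unadjusted p under 0.05, limma gave 465 probes (7.84%), 288 on the positive side (4.85%) and 177 on the negative side (2.98%). Over all 5934 probes the median effect was -0.00716, with quartiles at -0.114 and 0.0978. The effect of a probe had a median standard error (SE) of 0.144 log2 units, and 26 probes had an effect above 1 and 0 below -1.

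The count rested on how the spread was shared, how the arrays were scaled and which of them were used. With the 4 arrays of the experiment fitted alone, 4 probes passed, and of the 22 calls only DAC010L01, DAC007K04 and DAC015O13 were among them. With only the 4824 probes of 4 values tested, DAC007K04 alone passed, and the other 5 calls with 4 values had a limma adjusted p between 0.0568 and 0.134. Scaled to equal median absolute deviation, the arrays gave 58 calls, 49 positive and 9 negative, with all 22 among them. Without replicate 1, 2 or 4 the count was 1, 2 and 4, and 1 of the 7 calls that could still be tested passed in each. Without replicate 3 it was 48, with 16 of the 19 calls still tested among them. A fit in which the gap between dye orientations enters the error called 0 probes (144 at an unadjusted p under 0.05 by limma).

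The called probes fell into sets by the arrays that carried them. In the first set, 6 probes had a value on all 4 arrays, 6 of 4824 such probes (0.124%). DAC007K04 stood out among them. Its log2 ratios were 4.46 and 4.55 on replicates 1 and 2 and 1.22 and 0.387 on replicates 3 and 4. All 4 arrays were thus positive, with the arrays of RNAi RNA in Cy5 above the others. Its effect was 2.65 ± 0.187 (SE, n = 4, 6.3-fold, limma adjusted p = 7.63e-06). It was called without any 1 of the 4 arrays, with an effect between 2.45 and 2.86 and a limma adjusted p between 4.41e-05 and 0.000599. In the adult brain DAC007K04 had a value on 2 arrays, at -0.176 and 0.179. In the CNS of fru P1 mutant males at 48 h it ran from -1.71 to -0.484 on the 3 arrays with mutant RNA in Cy5 and from 0.660 to 1.22 on the 3 with wild-type RNA in Cy5, which are also the arrays of the other strain pair. Between Canton S females and males at 48 h it had -0.810 and -1.02 with female RNA in Cy5, and 0.625 and 0.516 with male RNA in Cy5. Its sign thus followed the dye orientation between the sexes and the dye orientation or strain pair in the mutants, whereas all its ratios were positive at 0 h.

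DAC015O13 had 2.14, 2.27, 0.727 and 0.340 on replicates 1 to 4, with an effect of 1.37 ± 0.237 (SE, n = 4, 2.58-fold, limma adjusted p = 0.0182). DAC029H22 had 2.35, 1.85, 0.287 and 0.321, with 1.20 ± 0.236 (SE, limma adjusted p = 0.0487). DAC019P10 had 1.98, 1.31, 0.543 and 0.710, with 1.14 ± 0.209 (SE, limma adjusted p = 0.0223). All 3 were positive on each array and higher where RNAi RNA carried Cy5. DAC006J16 had 1.10, 0.857, -0.0147 and 0.0846, so that its effect of 0.506 ± 0.102 (SE, limma adjusted p = 0.0488) came from replicates 1 and 2. DAC032I05 was positive throughout, at 1.64, 1.16, 0.461 and 0.386 (effect 0.912 ± 0.142, SE, limma adjusted p = 0.0182). Of these 5 probes, DAC015O13, DAC029H22 and DAC006J16 lost the call without any 1 of the 4 arrays, and DAC019P10 and DAC032I05 without replicate 1, 2 or 4. Their limma adjusted p without 1 array ran from 0.0441 (DAC032I05, without replicate 3) to 0.711 (DAC006J16, without replicate 1).

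DAC015O13, DAC029H22 and DAC019P10 also had like values on the adult arrays, which are other samples; this was noticed after their values were seen. On adult replicates 1 and 2, both with RNAi RNA in Cy5, DAC015O13 had -1.12 and 1.10, DAC029H22 -0.819 and 1.30, and DAC019P10 -0.768 and 0.872. On adult replicates 3 and 4 all 3 lay between 0.713 and 1.498. The probes were thus negative on adult replicate 1 and positive on the other 3 arrays, and their adult effects of 0.594, 0.675 and 0.564 did not pass (limma adjusted p = 0.998 each). DAC007O08 missed the call at 0 h (limma adjusted p = 0.0545) and was chosen after its values were seen. It passed with the 4 arrays fitted alone (limma adjusted p = 0.0446), with arrays scaled (0.00732), with 2 values sufficing (0.0479) and with a prior over the included probes alone (0.0293). It had 2.32, 2.02, 0.590 and 0.384 at 0 h and -0.865, 1.36, 0.928 and 1.505 in adults, the same order of arrays at both stages as DAC015O13 apart from its replicates 1 and 2 at 0 h.

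DAC032I05 was the only 1 of the 19 calls tested in the CNS of fru P1 mutant males that also passed there, at 0.859 ± 0.116 (SE, limma adjusted p = 0.00471), where 64 of all 7461 probes tested passed (0.858%), and all 6 arrays were positive, from 0.344 to 1.08. In whole pupae at 48 h it had 2.48 to 3.67 on the 4 arrays of fru-440/fru-P14 against Canton S males, and -0.878 to -0.531 on the 4 arrays of w; fru-w12/fru-ChaM5 against w; Berlin males. Its ratio thus had opposite signs in these pairs of strains. Whether strain background takes part in its values at 0 h was not tested. None of the 18 calls tested between female and male CNS passed there (0 by limma, lowest adjusted p = 0.325), where 45 of all 7414 probes tested passed (0.607%), and their effects lay between -0.471 and 0.558.

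In the second set, 13 called probes had no value on replicate 3, so that the dye orientation with driver-only RNA in Cy5 was represented by replicate 4 alone. On every one of the 13, replicate 4 exceeded replicates 1 and 2. As replicate 4 makes up all of 1 orientation in the mean by which they passed, this is partly fixed by their selection. The ratio on replicate 4 ran from 1.38 to 5.09 with a median of 2.77, whereas replicates 1 and 2 ran from -0.590 to 0.838 with a median of 0.208. DAC010L01 had the highest ratio, 5.09 on replicate 4, against -0.506 and -0.216 on replicates 1 and 2 (effect 2.37 ± 0.138, SE, n = 3, limma adjusted p = 1.43e-06). DAC034O09 had 3.22 on replicate 4 against 0.0549 and 0.228 (effect 1.68 ± 0.222, SE, n = 3, limma adjusted p = 0.00297). DAC036P13 had 2.77 against 0.388 and 0.304 (effect 1.56 ± 0.158, SE, n = 3, limma adjusted p = 0.00269). The fit passes exactly through a lone array of an orientation, so these SEs do not hold the gap to replicate 4. They come from the spread between replicates 1 and 2, that of the probe in the other CNS experiments and limma's prior over all measured probes.

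The other 10 of the 13 were DAC002J17, DAC002K24, DAC005L01, DAC013C02, DAC014P04, DAC024O03, DAC028D13, DAC030P01, DAC035O03 and DAC037P08, with effects between 0.865 (DAC024O03) and 2.02 (DAC002J17). DAC005L01 was the only one of these 10 that was negative on both replicates 1 and 2, at -0.590 and -0.151, with 3.21 on replicate 4. DAC024O03 had the smallest gap, with 0.506 and 0.188 on replicates 1 and 2 and 1.38 on replicate 4.

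The probes without a value on replicate 3 held a large share of the calls. They were 204 of the 5934 probes, and 13 of them passed (6.37%), against 0.124% of those with 4 values. Of the 568 probes without replicate 1, 1 passed (0.176%), as did 1 of the 148 without replicate 2 (0.676%) and 1 of the 190 without replicate 4 (0.526%). Replicate 4 itself lay higher on these 204 probes, called or not. Its median there was 0.614, with 80.9% of values positive, against a median of -0.00716 and 49.0% positive on the 4824 probes with 4 values. In the same orientation, replicate 3 had a median of 0.123 on the 190 probes without replicate 4, against -0.037 on those with 4 values. Replicate 4 also had 40 ratios above 2, against 10, 6 and 9 on replicates 1, 2 and 3. Replicate 3 lacked a value for 22 of these 40 and exceeded 1 log2 unit for 1.

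Another array was missing for 3 calls. DAC015J01 was the most even of the 22 across dye orientations, with 1.91 on replicate 2 and 1.51 and 1.63 on replicates 3 and 4, and an effect of 1.74 ± 0.306 (SE, n = 3, 3.34-fold, limma adjusted p = 0.0208). Its dye component was 0.166, the smallest of the calls, and all its arrays were high. In adults it had 1.41, 1.07, -1.41 and 0.676, and thus lacked a common sign. On the 1 array of the RNAi comparison at 48 h in log2 form, with RNAi RNA in Cy5, it had 4.29. Every other call with a value on that array was negative there, from -1.35 (DAC015O13) to -0.101 (DAC007K04). A single array cannot separate an effect from a dye component. DAC038A06 had 1.17, 0.996 and 0.642 on replicates 1 to 3 (effect 0.864 ± 0.147, SE, n = 3, limma adjusted p = 0.0208). DAC007O18 had 1.98 on replicate 1 and 0.157 and 0.330 on replicates 3 and 4 (effect 1.11 ± 0.160, SE, n = 3, limma adjusted p = 0.0182). With the 4 arrays fitted alone these 3 calls did not pass (limma adjusted p = 0.067 for DAC015J01, 0.308 for DAC038A06 and 0.165 for DAC007O18). The calls lay on 19 of the 40 plates with included probes, with at most 2 on a plate, and the median effect of a plate ran from -0.0504 to 0.0529.

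The probes of 1 sign on all 4 arrays were described without regard to the spread. Among the 185 positive ones the median effect was 0.254, and among the 235 negative ones -0.21. Beyond 0.25 log2 units on every array, 13 probes were positive and 1 negative, and beyond 0.5 there were 2 and 0. The 2 were DAC029K10, at 1.47, 0.735, 0.576 and 0.622, and DAC019P10. DAC029K10 had an effect of 0.85 ± 0.238 (SE, limma adjusted p = 0.254) and DAC027G06, next in this order with 0.482, 0.485, 1.08 and 0.870, had 0.729 ± 0.184 (SE, limma adjusted p = 0.173). Neither was among the 22 calls, although their values lay on 1 side of 0 on each array. With arrays scaled both passed (limma adjusted p = 0.0178 for DAC029K10 and 0.0364 for DAC027G06).

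Effects below 0 reached -0.895 at the lowest. DAC013B11, the negative probe farthest from 0 on its weakest array, had -0.398, -0.853, -0.493 and -0.555, with an effect of -0.575 ± 0.134 (SE, n = 4, limma adjusted p = 0.264). DAC013B11 had no value on any adult array. DAC032K20 stood at -0.351, -0.486, -0.223 and -0.371, DAC037O20 at -0.388, -0.290, -0.223 and -0.628, DAC031K24 at -0.221, -0.912, -0.503 and -0.472, and DAC003D21 at -0.248, -0.363, -0.206 and -0.292. These were negative on all 4 arrays with little gap between dye orientations, and their limma adjusted p lay between 0.464 and 0.541. The smallest p on the negative side among probes with 4 values belonged to DAC006B24, with -2.06 and -1.22 on replicates 1 and 2 but 0.512 and 0.514 on replicates 3 and 4 (effect -0.565 ± 0.122, SE, limma adjusted p = 0.0659). DAC006B24 passed without replicate 2 (effect -0.774 ± 0.121, SE, limma adjusted p = 0.0432), with arrays scaled (limma adjusted p = 0.00192) and with plate medians subtracted (limma adjusted p = 0.0473). DAC031E24 (effect -0.438) had the same arrangement of signs. DAC030B12 (-0.415) and DAC039G24 (-0.43) were negative on all 4 arrays but close to 0 on replicates 3 and 4, and DAC023G12 (-0.528) was positive on replicate 3. With arrays scaled, DAC030B12, DAC039G24 and DAC023G12 passed (limma adjusted p = 0.0179, 0.0139 and 0.0189).

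The RNAi effect was next set against that in the adult brain, measured on 4 arrays of other animals, collected within 24 h of eclosion, whose tissue label is brain although their titles name the CNS. Of the 22 calls, 17 could be tested there, and 16 of the 17 had a positive adult effect, as did 2600 of all 4853 probes tested at both stages. Their median effect was 1.42 at 0 h and 0.233 in adults, whereas over all 4853 probes the medians were -0.00258 and 0.0104. In adults 3 of 5992 probes passed (0.0501%). Both calls shared by the stages, DAC002J17 and DAC002K24, lay on plate 2 and lacked replicate 3 at 0 h and replicate 2 in adults. DAC002J17 had 0.0309, 0.838 and 3.61 on replicates 1, 2 and 4 at 0 h, and 2.29, 1.02 and 1.11 on replicates 1, 3 and 4 in adults. DAC002K24 had -0.344, 0.520 and 3.54 at 0 h and 4.36, 0.806 and 1.07 in adults. Each was highest on the array that stood alone in its dye orientation, which held driver-only RNA in Cy5 at 0 h and RNAi RNA in Cy5 in adults. Plate 2 had 37 included probes of 384, or 9.64%, and an SD of effects of 0.473, against 0.221 over all included probes.

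The difference between the stages passed for 1 of 4853 probes (0.0206%), with 144 (2.97%) at an unadjusted p under 0.05 by limma. This was DAC010L01, at 2.37 at 0 h and -0.0404 in adults, a difference of 2.41 ± 0.194 (SE, 0 h minus adult, limma adjusted p = 6.79e-05). It rests on the ratio of 5.09 on replicate 4 at 0 h, and without that array the probe could not be tested. With the 8 RNAi arrays of both stages fitted alone its limma adjusted p was 0.101. For the 4 calls with 4 values at 0 h that were tested in adults, the adult effect was 0.0906 to 0.675 and no difference passed (limma adjusted p = 0.996 each). Without adult replicate 2, DAC015O13 passed in place of DAC010L01, which could not be tested then (difference 1.33 ± 0.198, SE, limma adjusted p = 0.0408). Without adult replicate 1, DAC034O09, DAC035O03, DAC036P13 and DAC030H04 passed beside DAC010L01, and without 0 h replicate 3, DAC023D18 and DAC036P13 did.

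Read as Cy5 over Cy3 on every array, the same data would give the dye component as the RNAi effect, with a positive value for RNAi over driver only. Under this reading 482 of 5934 probes passed (8.12%), 166 positive (2.8%) and 316 negative (5.33%), and 33 of them exceeded 2-fold, 4 positive and 29 negative. The sign followed the dye orientation on every array with a value for 447 of the 482. Since these probes passed by their dye component, this follows largely from their selection. Among all 4824 probes with 4 values the share was 40.9%. Among the probes with 4 values, DAC005J02 had the lowest dye component. Its ratios were -1.41 and -1.08 on replicates 1 and 2 and 0.943 and 1.70 on replicates 3 and 4 as deposited, for a dye component of -1.28 ± 0.229 (SE, n = 4, limma adjusted p = 0.00575). DAC020H11 had -1.35, -2.01, 0.558 and 0.812 (-1.18 ± 0.139, SE, limma adjusted p = 0.000877), and DAC031A12 had -2.15, -1.26, 0.627 and 0.402 (-1.11 ± 0.160, SE, limma adjusted p = 0.00164). DAC029J12 and DAC006B24 followed among the probes with 4 values, at -1.09 and -1.08. Probes with 3 values reached lower, down to -2.73 for DAC010L01. The arrays of the 2 orientations did not overlap for any of the 5 probes with 4 values, which were chosen for the size of this gap.

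On the other side of the dye component, and again among the probes with 4 values, DAC007K04 had 1.85 and DAC020J16, with ratios of 2.54, 1.22, 0.951 and -1.24 on replicates 1 to 4, had 1.01. DAC029H22 (0.898), DAC003I04 (0.868) and DAC030N16 (0.856) came next. Of the 22 calls under the first reading, 17 also passed under this one, 5 of them positive and 12 negative there. These 12 were among the 13 without a value on replicate 3. Both readings use the same values and the same SE for a probe, so passing under both is no second result. Of all 22, 13 had a negative dye component, namely those without a value on replicate 3, and 9 had a positive one. On those 13, replicate 4 stood alone in its orientation and exceeded replicates 1 and 2, which makes the dye component negative. The difference between the stages passed for 29 of 4853 probes under this reading (0.598%). DAC010L01 was among them with the sign turned, at -2.73 at 0 h and -0.689 in adults, a difference of -2.04 ± 0.194 (SE, 0 h minus adult, limma adjusted p = 0.000492).

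The dye component at 0 h was shared with experiments that compared other samples. It correlated across probes with Pearson's r = 0.537 with that of the adult RNAi arrays (4853 probes), r = 0.461 with that of the male and female CNS (5098 probes) and r = 0.346 with that of the fru P1 mutant CNS (5096 probes). Of the 482 probes, 385 of the 449 tested between the sexes (85.7%) had the same sign of the dye component there, against 69.6% of all 5098 probes. In the adult RNAi arrays 362 of 397 did (91.2%, against 73.8%), and in the fru P1 mutant CNS, where it cannot be told apart from the strain pair, 336 of 443 (75.8%, against 66%). The effect at 0 h correlated with that in adults with r = 0.345, with that of sex with r = 0.0162 and with that of fru P1 loss with r = 0.114. These correlations describe probes that share a platform and labelling. They do not settle the direction of the deposited ratios at 0 h.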

How the data were processed

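Of the series' 30 arrays with 2 channels each, the 4 comparing RNAi with driver-only males at 0 h were analysed. The authors deposited log2 ratios, which per the submitters' processing notes were made with limma. Its version and settings were not given in the sources used here, nor was the direction of a ratio. Of the deposited values, 3 arrays of the 48 h RNAi experiment have an unknown scale (taken as a score) and were not used. The other array of that experiment has the form of log2 ratios. It was left out of the fits, and its values are given for called probes only. The 32 control spots were left out.

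An effect and a dye coefficient per experiment were fitted with limma 3.58.1 in R 4.3.3 to 18 arrays of 4 CNS experiments, which share the spread. P-values were two-sided and Benjamini-Hochberg adjusted over the 5934 probes, with a threshold of 0.05. The fit was tested on simulated data drawn from its own model, with 1 spread per probe on all arrays. Such data do not test it for arrays that differ in spread. Named probes were the calls at 0 h and between stages and, among probes with 4 values and on each side of 0, the 5 with the smallest p, the 5 of 1 sign whose value nearest to 0 was largest in size and the 5 with the largest dye component, apart from probes said to be chosen after their values were seen. Planned gene lists and cell type markers could not be used, since probes are unnamed. The alternatives covered fit, direction, missing values, centring, scaling, plate, prior and single arrays, and 2 were added after seeing the data, a prior over the included probes alone and the other direction for 0 h minus adult. Probes and rules were chosen with earlier results of these data known.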

Additional observations from a re-analysis of the deposited data

Results flagged for a closer look

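Replicate 1 had a value for 5652 probes, far below the 6337 to 6455 of the other 3 arrays. Replicate 4 had 40 ratios above 2, against 6 to 10 on the others. Each gap exceeded Dixon's critical value for 4 arrays. There were 8 array measures tested in this way, of which chance takes about 1 in 20 past the limit, and none of the 25 named probes with 4 values had such an array.

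For DAC010L01 the RNAi effect differed between the stages by 2.41 log2 units (0 h minus adult, limma adjusted p = 6.79e-05), with 2.37 at 0 h and -0.0404 in adults. Its value at 0 h rests on replicate 4, and with ratios read as Cy5 over Cy3 the difference was -2.04.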

How the results depend on the processing

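With 22 calls at 0 h, centring and a robust prior left 22, plate medians gave 26, a prior over the included probes alone 31, and 2 values sufficing 29, each with all 22 among them. The count was 4 with the 4 arrays fitted alone, 0 without a dye coefficient (144 at an unadjusted p under 0.05 by limma), 482 as Cy5 over Cy3, 1 with 2 values needed in each orientation (6 of the 22 tested), 58 with arrays scaled, and 1 to 48 without 1 array. The count of 1 for 0 h minus adult was 0 with 8 arrays alone, 0 without dye coefficients and 0 with 2 values per orientation (limma gave 96, 22 and 82 at an unadjusted p under 0.05), 29 as Cy5 over Cy3, and 0 to 5 without 1 array, with 5 without adult replicate 1 and 3 without 0 h replicate 3.

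Read as Cy5 over Cy3, the effect turned for DAC010L01 (-2.73), DAC002J17 (-1.59), DAC036P13 (-1.21), DAC034O09 (-1.54), DAC028D13 (-1.25), DAC014P04 (-1.01), DAC035O03 (-1.47), DAC005L01 (-1.79), DAC024O03 (-0.5185), DAC002K24 (-1.73), DAC037P08 (-0.834), DAC013C02 (-0.688), DAC030P01 (-0.57), DAC027G06 (-0.246), DAC037O20 (0.0437) and DAC005J02 (-1.28), and 0 h minus adult turned for DAC010L01 (-2.04). DAC005J02, at 0.0403, also turned with arrays scaled (-0.0412) and ran from -0.15 to 0.231 without 1 array. Under the Cy5 over Cy3 reading the dye component takes the place of the effect, so an effect turns wherever these differ in sign. For DAC005J02 the SE of 0.229 exceeded the effect, and why it turned with arrays scaled was not tested. No paired analysis was possible because the replicate number pairs nothing across arrays. This concerns pairs of arrays only. Both samples are compared within each array, and every fit used these within-array ratios, so that pairing was kept.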
